A study of Mus musculus with 20 samples.

Results

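Knockout (KO) and heterozygous (het) tubular epithelial cells carrying the targeted Ptprz1 allele were compared after inflammatory stimulation, in 8 of the 20 libraries of the series. The cells were primary cultures from mouse kidneys of the strain B6.129-Ptprz1tm1Nmo, and the labels give no age. All 8 libraries came from cultures exposed for 24 h to lipopolysaccharide (LPS) at 100 ng/mL and interferon-gamma (IFNγ) at 10 ng/mL. The KO group held replicates 1, 2, 3 and 5 and the het group replicates 1 to 4, named KO 1 or het 1 and so on in what follows. No wild-type cells entered the comparison, so every library carried the targeted allele, and the sources do not state which bases of the gene the allele lacks. Each of the 8 libraries came from another animal. The animal of het 3 is also listed under a KO control library, and that of KO 3 under a het control library. How each animal's cells were divided among cultures is not stated, and the p-values below reflect only the spread between libraries.

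The libraries were chosen by measured values. Over 34 genes of the interferon-gamma response the summed level was 27365 to 50093 CPM (counts scaled to a common library size) in the 8 libraries. KO 4 and het 5, with 544.5 and 456.7 CPM, are labelled as stimulated and were left out for that reason. The level of interferon targets is therefore given below as a description, with no support drawn from it.

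Ptprz1 encodes a receptor-type tyrosine phosphatase of the cell surface that binds pleiotrophin and midkine, and it is also a receptor for the cytokine IL-34, which together with CSF1 acts on the macrophage receptor CSF1R. LPS signals through Toll-like receptor 4 to NF-kB, and together with IFNγ it leads tubular cells to make chemokines, cytokines and antigen-presentation proteins. Injured tubular cells lose the transport functions of the proximal tubule and switch on injury genes such as Havcr1 (KIM-1).

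No gene was called between KO and het cells in the stimulated state. Many of the widest differences followed 2 of the 4 het libraries, and others rested largely on 1 KO library. The log2 fold change of Col1a1 was 2.29 with all libraries and 0.42 without KO 3. That of Notum was 3.21 with all libraries and 1.68 without KO 5. In het 1 and het 4 the proximal tubule gene Hnf4a, the injury gene Havcr1, macrophage genes such as Lyz2 and several inflammatory genes were high, while fibroblast and contractile genes were low. The other 2 het libraries lay near the KO libraries for most of these genes. Their summed contractile levels, 6937 and 10229 CPM, were above the 2934 to 6185 CPM of the KO libraries. Smaller differences with less spread, such as higher Zfp771 and lower Zfp850 in KO cells, were seen with and without het 1 and het 4. They did not pass the threshold, and these genes were picked by lowest p. For Zfp771 and Zfp850 the groups did not overlap. Leaving out het libraries could therefore not remove the difference, and no support is drawn from its persistence. The share of genes at an unadjusted p under 0.05 (edgeR) was 2.62%, no more than the threshold alone lets through when no gene differs.

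The targeted gene was close to the detection limit. Ptprz1 (ENSMUSG00000068748) had 0, 1, 0 and 0 counts in KO 1, 2, 3 and 5 and 2, 4, 0 and 3 counts in het 1 to 4. The KO group had a mean of 0.0148 ± 0.0297 CPM and the het group one of 0.133 ± 0.0973 CPM (SD, n = 4 each). The groups overlapped, since het 3 also had no count. The animal of het 3 is also listed under KO control 2, which held no Ptprz1 count either. KO 3 and het control 3, listed under the same animal as each other, also held none. Whether a label is wrong was not tested. The difference did not exceed the spread between libraries (exact two-sided permutation test, p = 0.143 over 70 relabellings, with 0.0286 the smallest p possible). Leaving out het 3, the only het library without a count, removes the overlap. The exact permutation p of 0.0286 was then fixed as the smallest that the 35 relabellings allow, so no support is drawn from it. Leaving out any other single library gave p of 0.143 to 0.257 (same test). With the 10 stimulated libraries as labelled, which add KO 4 and het 5, the difference was −0.0036 CPM. From the pooled counts the KO to het ratio was 0.106 with an exact 95% interval of 0.00243 to 0.768, which covers counting error only. A count of 0 in one of these libraries allows up to 0.156 to 0.198 CPM. The library labelled KO 4, outside the comparison, held 7 Ptprz1 counts.

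Total counts were 15143865 to 19211657 in the 8 libraries. Along the first principal component of log2 CPM, which held 51% of the variance, het 1 lay at −103.7 and het 4 at −62.3, KO 1 at −7.77 and the remaining libraries at 21.5 to 45. On component 2, with 16.1% of the variance, het 1 lay at −16.6, het 4 at 45.1 and KO 5 at 45.3. The correlation of log2 CPM across genes was 0.865 to 0.939 between het 1 or het 4 and the other 6 libraries. Among the other 6 it was 0.934 to 0.989. Het 1 and het 4 correlated at 0.933, and the library closest to het 4 was KO 1, at 0.939. Genes are not independent replicates. The median standard deviation of a gene on the log2 scale was 0.355 in het and 0.224 in KO libraries, and it was larger in het for 73.3% of the genes. By Xist and Y-linked genes, het 2, KO 2 and KO 3 were female and the others male. With sex as a covariate edgeR called 0 genes, with 112 at an unadjusted p under 0.05, and without het 3 and KO 3, whose animals are listed under both genotypes, it called 0, with 305.

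**Figure D1:**
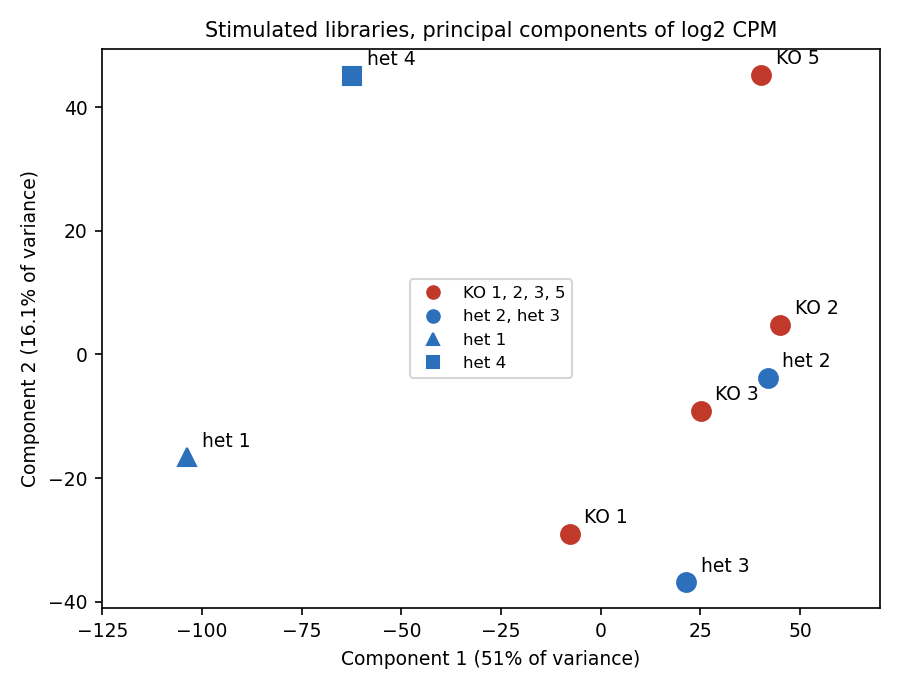
Principal components of edgeR's log2 CPM over the genes tested in the 8 stimulated libraries. Component 1 is on the x axis and component 2 on the y axis, and each point is 1 library. Het 1 (triangle) and het 4 (square) lie at −103.7 and −62.3 on component 1, apart from the other 6, among which het 2 and het 3 lie next to KO libraries.

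The labelled cell type was checked against 8 markers of tubular epithelium. The epithelial adhesion molecule Epcam was at 52.2, 0.356, 27.5 and 0.234 CPM in KO 1, 2, 3 and 5 and at 47.4, 0.382, 21.0 and 39.9 CPM in het 1 to 4. E-cadherin (Cdh1) was at 164.8, 0.712, 50.7 and 0.761 CPM in the KO libraries and at 131, 1.69, 68.8 and 108.1 CPM in the het libraries. KO 2, KO 5 and het 2 were thus nearly without both epithelial markers, while the renal transcription factor Pax8 was at 162.8 to 380.5 CPM in every library. The smooth muscle actin gene Acta2, by contrast, was at 1562 to 3274 CPM in the KO libraries, at 3542 and 5537 CPM in het 2 and het 3 and at only 71.8 and 401.7 CPM in het 1 and het 4. The 8 stimulated cultures therefore differed in epithelial and contractile gene content within each genotype. In bulk RNA fewer cells of a type and less RNA per cell cannot be told apart.

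Of 13757 genes tested, 0 passed an adjusted p of 0.05 (0% called, edgeR's quasi-likelihood test with Benjamini-Hochberg adjustment), and the lowest adjusted p was 0.865. At an unadjusted p under 0.05 there were 360 genes (2.62%), of which 154 were higher in KO (1.12%) and 206 lower (1.5%). The share of 2.62% is no more than the threshold itself lets through when no gene differs. DESeq2 called 1 gene and had 665 at an unadjusted p under 0.05, and limma-voom called 0 and had 266. The 4 KO libraries lay above all 4 het libraries in 121 genes (0.88%) and below them in 93 (0.676%). Each of these orders is 1 of the 70 relabellings of 4 against 4, and neither share is above what relabelling alone gives. Which gene DESeq2 called is given with the proximal tubule genes below.

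The precision sets what could have been seen. The median standard error of a log2 fold change was 0.234 and the median half-width of its 95% interval was 0.534. For 63.9% of the genes the interval lay within a 2-fold change in either direction (1 on the log2 scale). The estimates reached an absolute log2 fold change of at least 1 in 848 genes, 326 higher and 522 lower in KO. With limma-voom the same count was 964, of which 578 were higher and 386 lower, so the balance of directions depended on the tool.

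How far het 1 and het 4 carried these estimates was read from the 848 genes. Their median absolute log2 fold change was 1.43 with all 8 libraries, 1.05 without het 1, 1.23 without het 4 and 0.606 without both. The 848 genes were chosen by estimates that include het 1 and het 4, which in part fixes such a drop, and over all genes tested the median was 0.184 with and 0.144 without them. Of the 848 genes, 445 (52.5%) were still at 1 or more with the same sign without het 1, 588 (69.3%) without het 4 and 144 (17.0%) without both. Without both, 340 (40.1%) changed sign. Leaving out het 2 and het 3 instead, which gives the same group sizes, kept 814 (96.0%) at 1 or more with the same sign, with 2 sign changes (0.236%) and a median of 2.37.

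Calls moved in the same way. In the absence of het 1 and het 4 edgeR called 0 of 14228 genes (0%), with 285 at an unadjusted p under 0.05, and 503 of the 588 genes at 1 or more were higher in KO. Without het 2 and het 3 it called 639 of 14489 (4.41%), 290 higher (2%) and 349 lower (2.41%) in KO. That last setting sets the KO libraries against the pair of het libraries that stand apart on component 1, so genotype and whatever else distinguishes those cultures cannot be told apart in it. Het 1 and het 4 were both more than 1 log2 unit above each of the other 6 libraries in 193 genes (1.4%) and below in 257 (1.87%), but they also differed from each other, by a median of 0.426 log2 units per gene against 0.166 between het 2 and het 3.

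**Figure D2:**
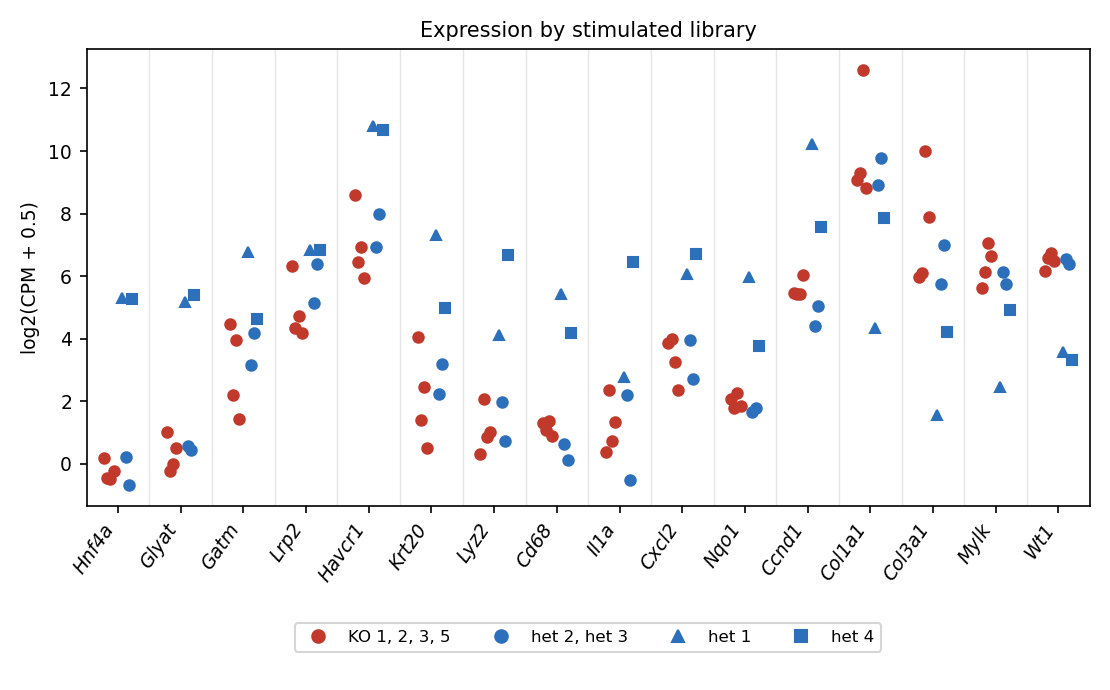
Expression of 16 genes as log2(CPM + 0.5) on the y axis, each point 1 stimulated library, with KO in red and het in blue. Het 1 (triangles) and het 4 (squares) lie above the other 6 libraries for Hnf4a, Glyat and Havcr1 and below them for Wt1 and Mylk.

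The proximal tubule list held the gene with the lowest log2 fold change of all genes tested. Hnf4a, a transcription factor of the proximal tubule, was at 0.633, 0.237, 0.219 and 0.351 CPM in KO 1, 2, 3 and 5 and at 38.6, 0.655, 0.13 and 38.1 CPM in het 1 to 4. Its level was high in het 1 and het 4 alone, and the groups overlapped. The log2 fold change was −5.73 ± 1.64 (SE, adjusted p = 0.865, edgeR). DESeq2 gave −5.76 ± 1.23 with an adjusted p of 0.0357, its only call. With limma-voom it was −3.28 ± 2.84, so the size of this difference depended on the tool. Without het 1 and het 4 the edgeR estimate was −0.16 ± 0.80.

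Glyat, a mitochondrial glycine acyltransferase that is not on the list, was high in the same libraries. It was at 0.356 to 1.55 CPM in the KO libraries, at 0.983 and 0.848 CPM in het 2 and het 3 and at 35.5 and 41.3 CPM in het 1 and het 4. The endocytosis receptor Cubn was at 6.79, 6.05, 4.55 and 3.16 CPM in the KO libraries and at 14.7, 7.15, 7.5 and 10.1 CPM in the het libraries. Here the groups did not overlap, and the log2 fold change was −0.94 ± 0.33 with all libraries and −0.51 ± 0.32 without het 1 and het 4. Its partner Lrp2 (megalin) was at 17.7 to 79.7 CPM in KO and 34.7 to 114.8 CPM in het libraries, which overlapped. Of 13 proximal tubule genes 6 were expressed enough to be tested, and all 6 were lower in KO with a median log2 fold change of −1.11, against 7167 of 13757 and −0.01 over all genes. When het 1 and het 4 were left out, 4 of the 6 were lower and the median was −0.22.

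The same animals' control libraries showed the same order. The summed level of the 13 proximal tubule genes was 1036 and 633.1 CPM in het control 1 and 4 and 80.9 to 194.3 CPM in the control libraries of the other 6 numbers. In the stimulated state it was 401.1 and 309.6 CPM in het 1 and het 4 and 60.7 to 152.2 CPM in the other 6. The 2 cultures thus stood apart without stimulation as well.

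Injury genes were high in het 1 and het 4. Havcr1 was at 386.3, 87.7, 122.3 and 60.5 CPM in KO 1, 2, 3 and 5 and at 1778, 121.6, 253 and 1632 CPM in het 1 to 4. Only het 1 and het 4 were above the highest KO library. The log2 fold change was −2.54 ± 0.96 with all 8 libraries and −0.19 ± 0.75 without those 2. Krt20, a keratin of injured tubules, was at 0.936 to 16.2 CPM in KO, 4.2 and 8.67 CPM in het 2 and het 3 and 159.7 and 31.3 CPM in het 1 and het 4. Osteopontin (Spp1) was at 1069 to 1919 CPM in KO libraries and at 6883, 1258, 887.5 and 4898 CPM in het 1 to 4, and its log2 fold change turned from −1.16 to 0.54 without het 1 and het 4. Over the 15 injury and repair genes 12 were lower in KO with a median of −0.20, and without these libraries 8 were lower with a median of −0.02.

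Leukocyte markers were low in the KO libraries and in het 2 and het 3. The macrophage lysozyme gene Lyz2 was at 0.748, 3.74, 1.32 and 1.52 CPM in KO 1, 2, 3 and 5 and at 17, 3.44, 1.17 and 101.9 CPM in het 1 to 4. Adgre1 (F4/80) was at 0.41 to 0.712 CPM in KO libraries, at 2.86 CPM in het 1 and at 29.4 CPM in het 4. Csf1r was at 19.1 CPM in het 4 and at no more than 3.78 CPM in any other library, het 1 included. Het 4 therefore had the highest level of all 3 genes. Cd68, the other marker tested, went the other way, with 42.8 CPM in het 1 and 17.5 CPM in het 4. It was at 0.587 to 2.08 CPM in the other libraries. The summed level of the 9 listed markers was 66.8 and 200 CPM in het 1 and het 4 and 4.15 to 8.25 CPM in the other 6, and between 1 and 3 of the 9 were at 0 in each library. The pan-leukocyte gene Ptprc (CD45) was at 8.63 CPM in het 4 and at no more than 0.669 CPM elsewhere, and the T-cell gene Cd3e was at 0 in all 8 libraries.

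All 4 leukocyte markers tested were lower in KO, with log2 fold changes from −4.09 ± 1.34 for Lyz2 to −2.21 ± 1.1 for Csf1r. Leaving out het 1 and het 4 put Lyz2 at −0.34 ± 0.72 and Cd68 at 1.09 ± 0.43. Het control 1 and 4 summed to 82.6 and 309.5 CPM of leukocyte markers and the other control libraries to 10.5 to 22.1 CPM. The part of leukocyte RNA in the differences given next was not tested.

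NF-kB targets and cytokines were mostly lower in KO libraries. The cytokine Il1a was at 0.806, 4.63, 1.15 and 2.05 CPM in KO 1, 2, 3 and 5 and at 6.39, 4.15, 0.196 and 86.8 CPM in het 1 to 4. Il1b was at 1.1 to 4.15 CPM in KO, at 70 CPM in het 4 and at 4.44, 3.77 and 0.456 CPM in het 1 to 3. Both cytokines were thus high in het 4 alone. Tnfaip3, the NF-kB feedback inhibitor A20, was at 116.1 to 261.9 CPM in KO libraries, at 225.5 and 217.8 CPM in het 2 and het 3 and at 519.1 and 504.2 CPM in het 1 and het 4. Of 24 genes tested 22 were lower in KO with a median log2 fold change of −0.44, and without het 1 and het 4 only 9 were lower and the median was 0.24. The hyaluronan receptor Cd44 was at 725.1, 644.4, 316.9 and 400 CPM in the KO libraries and at 1220, 734.6, 678.4 and 1066 CPM in the het libraries, with −0.83 ± 0.31 before and −0.44 ± 0.34 after those libraries were left out.

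Chemokines were similar. Cxcl2, a neutrophil chemokine, was at 4.68 to 15.4 CPM in KO, at 15 and 6 CPM in het 2 and het 3 and at 66.1 and 103.7 CPM in het 1 and het 4. Cxcl5 was at 85.9 to 178.2 CPM in KO libraries and at 188.9, 83.9, 24.9 and 1491 CPM in het 1 to 4. The Cxcl5 difference rested on het 4, since its log2 fold change of −1.98 ± 1.09 became 0.21 without that library. Ccl2, which recruits monocytes, was at 160 to 626.2 CPM in KO and 252.2 to 1292 CPM in het libraries, with overlap and −0.99 ± 0.54. Of 13 chemokines tested 10 were lower in KO, and 2 of 13 without het 1 and het 4.

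Interferon-stimulated genes showed no shared direction with all 8 libraries. Among 34 genes of the interferon-gamma response 23 were higher and 11 lower in KO, with a median log2 fold change of 0.16. Without het 1 and het 4, 32 were higher, with a median of 0.21, against 52% of all genes in that fit. These genes are not independent replicates. The GTPase Gbp6 was at 1652, 2303, 2269 and 4587 CPM in KO 1, 2, 3 and 5 and at 1280, 1916, 1362 and 1565 CPM in het 1 to 4, with 0.82 ± 0.33. KO 5 was the highest and the groups overlapped. Members of the Gbp family can share reads with near-identical copies, so this value is uncertain.

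Type I interferon-stimulated genes were lower in 22 of 30, with a median of −0.17. The antiviral Mx1 was at 0.878 to 3.1 CPM in KO, at 1.42 and 1.5 CPM in het 2 and het 3 and at 18.6 and 16.4 CPM in het 1 and het 4. Oasl1, an oligoadenylate synthetase-like gene, was at 57.2, 20.1, 11 and 18.5 CPM in the KO libraries and at 177.6, 22.7, 23.1 and 120.7 CPM in the het libraries. Rsad2 (viperin) was at 60.5 to 248.8 CPM in KO, at 86.1 and 70.9 CPM in het 2 and het 3 and at 764.1 and 1037 CPM in het 1 and het 4. All 3 genes were therefore highest in the same pair of het libraries. Without these, 30 of 30 were higher in KO with a median of 0.32, while Mx1 alone was at 0.37 ± 0.53. Over all genes 52% were higher in KO in that fit, and the 30 genes are not independent replicates. The libraries left did not separate by genotype. The list's mean of log2(CPM + 0.5) was 6.36 in KO 3, below het 2 at 7.1 and het 3 at 6.45.

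Antigen-presentation genes differed between class I and class II in their spread. In the MHC class I pathway 16 of 20 genes were higher in KO with a median of 0.10, such as the immunoproteasome subunit Psmb10 at 184.7 to 209.5 CPM in KO and 139.5 to 186 CPM in het libraries (0.24 ± 0.12). The class II chain gene H2-Ab1 was at 34.8, 19.9, 43 and 92 CPM in KO 1, 2, 3 and 5 and at 14.2, 13.1, 15.4 and 56.3 CPM in het 1 to 4. Het 4 was above 3 of the 4 KO libraries, and the other het libraries were below all of them. Its log2 fold change was 0.93 ± 0.62 with and 1.74 ± 0.61 without het 1 and het 4. The class II regulator Ciita was at 38.7, 37.7, 78.5 and 126.6 CPM in KO and 15.4, 25.1, 20.3 and 108.2 CPM in het libraries, the same order. With all 8 libraries 7 of the 9 class II genes tested were higher in KO. Ctss, the list's first by p, was lower, at −3.29 ± 1.2. It was at 1.15 to 1.48 CPM in KO and at 1.31 and 0.456 CPM in het 2 and het 3. Het 1 and het 4 held 9.19 and 39.5 CPM. Without het 1 and het 4 all 9 were higher in KO, Ctss at 0.53 ± 0.50. None passed the threshold in either fit (edgeR).

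The CSF1R axis and the Ptprz1 ligands were followed because the series concerns Ptprz1. Il34 was at 58.5, 72.2, 46.7 and 65.2 CPM in KO 1, 2, 3 and 5 and at 49.2, 68.8, 57.5 and 35.3 CPM in het 1 to 4. Csf1 was at 472, 662.5, 346.7 and 515.4 CPM in KO and at 512.4, 523, 533.6 and 842.2 CPM in het libraries. The groups overlapped for both ligands. Their log2 fold changes were 0.21 ± 0.21 for Il34, with a 95% interval of −0.28 to 0.69, and −0.27 ± 0.25 for Csf1, with −0.84 to 0.29. Pleiotrophin (Ptn), a ligand of Ptprz1, was below 1.1 CPM in every library and at 1.00 ± 0.80. Across the 8 genes tested 4 were higher and 4 lower.

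Of 21 genes of oxidative and endoplasmic reticulum stress 14 were lower and 7 higher in KO, and without het 1 and het 4 14 were higher and 7 lower. The quinone reductase Nqo1 was at 2.97 to 4.33 CPM in KO, at 2.67 and 2.93 CPM in het 2 and het 3 and at 62.7 and 13.1 CPM in het 1 and het 4. Heme oxygenase (Hmox1) was at 139.6 to 244.3 CPM in KO libraries and at 1238, 167.4, 195.6 and 294.6 CPM in het 1 to 4. The cystine transporter Slc7a11 was at 15.3 to 22 CPM in KO, at 12.1 and 13 CPM in het 2 and het 3 and at 180 and 60.8 CPM in het 1 and het 4. In these 3 genes, the list's first by p, het 1 was highest and het 4 next. Cyclin D1 (Ccnd1), a growth gene of the Wnt target list, was at 43.6, 42.3, 42.2 and 65.4 CPM in KO and at 1185, 20.7, 32.9 and 187.8 CPM in het 1 to 4. Its log2 fold change was −2.88 ± 1.17 with all libraries and 0.85 ± 0.27 without het 1 and het 4, since het 2 and het 3 lay below every KO library.

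Cell-cycle genes were mostly lower in KO. With all 8 libraries 30 of 32 were lower in KO with a median log2 fold change of −0.36, and without het 1 and het 4 all 32 were lower with −0.33. A single library moved this median, to −0.12 without het 1 and −0.53 without het 4. The summed level of the list was 1912 CPM in het 1 and 756 CPM in het 4, on either side of het 2 and het 3 at 1169 and 1288 CPM. None reached an unadjusted p of 0.05, and the median half-width of their 95% intervals was 0.854, wider than the median difference. Cdt1, a replication licensing factor, was at 6.09 to 8.89 CPM in KO and at 53, 7.86, 9.45 and 5.65 CPM in het 1 to 4, so its −1.26 ± 0.69 rested on het 1 and was 0.05 without it. The 32 genes are not independent replicates.

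Fibroblast and contractile genes were low in het 1 and het 4. The collagen gene Col1a1 was at 535.2, 624.5, 6162 and 449.7 CPM in KO 1, 2, 3 and 5 and at 19.7, 483.3, 869.4 and 230.4 CPM in het 1 to 4. Col3a1 was at 63, 67.7, 1029 and 235.9 CPM in KO and at 2.43, 53, 128.3 and 18 CPM in het libraries. KO 3 was the highest library for both collagens and het 1 the lowest. The other library of the animal of KO 3 is labelled het control 3, and it held 7619 CPM of Col1a1 and 1585 CPM of Col3a1, against 30 to 1113 CPM and 8.89 to 277 CPM in the other 7 control libraries of the same genotypes and numbers. The log2 fold change of Col1a1 was 2.29 ± 1.21 with all libraries, 0.42 without KO 3 and 1.52 ± 1.25 without het 1 and het 4. All 7 fibroblast markers tested were higher in KO with a median of 1.67, and 5 of 7 without het 1 and het 4 with a median of 1.1.

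Contractile and podocyte genes did not share 1 direction. The myosin kinase gene Mylk was at 48.6 to 132.1 CPM in KO, at 69.1 and 53 CPM in het 2 and het 3 and at 4.99 and 30.1 CPM in het 1 and het 4. Wt1, a transcription factor of podocytes, was at 71.2 to 105.7 CPM in KO, 93.3 and 83.9 CPM in het 2 and het 3 and 11.4 and 9.45 CPM in het 1 and het 4. Podxl, another podocyte marker, went the other way, with 8.25 to 27.3 CPM in KO, 10.7 and 13.9 CPM in het 2 and het 3 and 50.6 and 54.8 CPM in het 1 and het 4. Of the 3 podocyte markers tested 2 were higher and 1 lower in KO. Calponin (Cnn1) was at 89.6 to 256 CPM in KO and at 4.08, 341.6, 495.2 and 25.8 CPM in het 1 to 4. The het group thus held both the highest and the lowest Cnn1 levels. Its log2 fold change was −0.21 ± 1.12 with edgeR and 1.40 with limma-voom. In the matrix and TGF-beta list 18 of 22 genes were higher in KO, and 10 of 22 without het 1 and het 4.

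**Figure D3:**
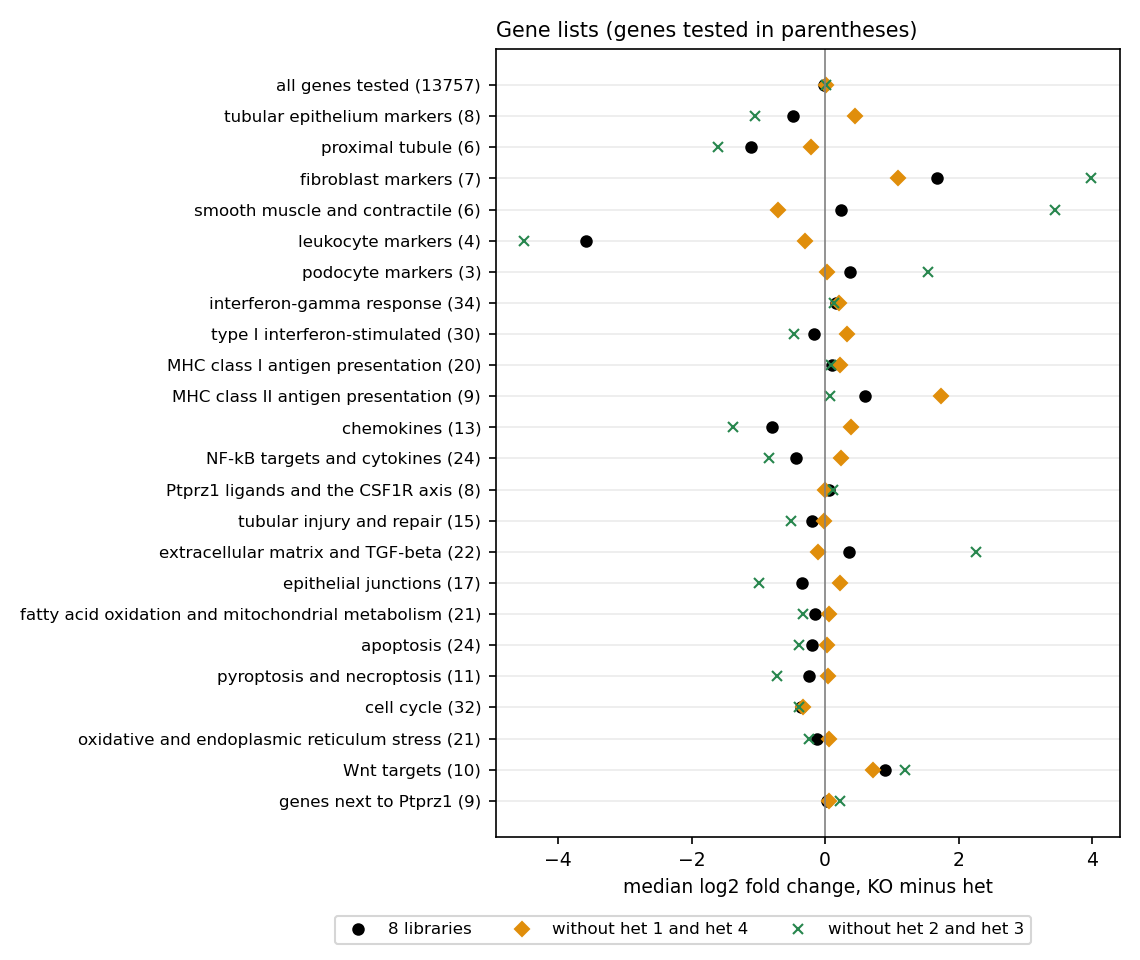
Median log2 fold change (KO minus het, x axis) of each gene list, with the number of genes tested in parentheses, for all 8 libraries (circles), without het 1 and het 4 (diamonds) and without het 2 and het 3 (crosses). The medians of 13 of 26 lists have the other sign without het 1 and het 4 and 0 of 26 without het 2 and het 3. The loop of Henle, endothelial and sex-linked lists are not drawn.

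Across all 26 lists the median log2 fold change had the other sign in 13 without het 1 and het 4 and in 0 without het 2 and het 3. The plot of list medians shows that leukocyte, smooth muscle and fibroblast markers spread the most between the settings and that the cell-cycle and interferon-gamma lists spread the least.

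The 8 genes with the lowest p in each direction held both small differences and wide ones, the latter including Hnf4a and Glyat, already described, and Notum. The zinc finger gene Zfp771 was at 13, 12, 15.9 and 15 CPM in KO 1, 2, 3 and 5 and at 6.94, 8.52, 10.2 and 7.74 CPM in het 1 to 4. Every KO library was above every het library. KO libraries averaged 14 ± 1.75 CPM and het libraries 8.34 ± 1.38 CPM (SD, n = 4 each), and the log2 fold change of 0.75 ± 0.18 had an unadjusted p of 0.00279 and an adjusted p of 0.865 (edgeR). Without het 1 and het 4 it was 0.58 ± 0.18.

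Hps6, which takes part in the biogenesis of lysosome-related organelles, was at 17.8, 17.1, 17.5 and 19.1 CPM in KO and at 9.19, 14.6, 11.7 and 10.5 CPM in het libraries. Nr4a2, an orphan nuclear receptor, was at 6.22, 3.97, 6.97 and 7.55 CPM in KO and at 2.19, 3.49, 3.39 and 3.49 CPM in het libraries. Cebpd, a transcription factor of the acute-phase response, was at 72.7, 80.3, 103.8 and 132.1 CPM in KO and at 47.7, 66.7, 66 and 63.7 CPM in het libraries. The groups did not overlap for these 3 genes, nor for the protease gene Tysnd1 (0.61 ± 0.19). Their log2 fold changes were 0.64 ± 0.17, 0.98 ± 0.29 and 0.67 ± 0.21, and without het 1 and het 4 they were 0.44, 0.84 and 0.55. The selenoprotein gene Selenom (0.68 ± 0.19) and the RNA-binding factor Arid5a (0.61 ± 0.18) were also higher in KO, and their groups overlapped through het 2.

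The Wnt feedback genes Notum and Axin2 were higher in KO through KO 5 above all. Notum, a secreted Wnt deacylase, was at 1.21, 3.32, 4.83 and 26.9 CPM in KO 1, 2, 3 and 5 and at 0.73, 1.8, 0.391 and 0.951 CPM in het 1 to 4. Its log2 fold change was 3.21 ± 0.98 with KO 5 and 1.68 without it. Axin2 was at 29.1, 39.1, 58.7 and 94.9 CPM in KO and at 28.8, 34.3, 25 and 15.1 CPM in het libraries, with 1.11 ± 0.39, and 0.72 without KO 5. KO 5 was the highest library for both, and the groups overlapped. Of 10 Wnt targets tested 7 were higher in KO, and 9 without het 1 and het 4.

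On the lower side Zfp850, another zinc finger gene, was at 4.6, 4.69, 4.28 and 3.92 CPM in KO and at 9.62, 6.22, 6.45 and 7.68 CPM in het libraries. Nipsnap3b was at 28.5, 27.6, 26.4 and 25 CPM in KO and at 41.8, 29.9, 34.9 and 41.5 CPM in het libraries. Odf2l was at 22.9, 22.8, 21.1 and 22.5 CPM in KO and at 43.8, 27.3, 27.3 and 33.2 CPM in het libraries. In each of the 3 genes all KO libraries lay below all het libraries, and het 1 had the highest level. The log2 fold changes were −0.78 ± 0.22, −0.46 ± 0.14 and −0.56 ± 0.17, and −0.54, −0.27 and −0.29 without het 1 and het 4.

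Nhsl2 (−1.47 ± 0.44), the imprinted gene Zim1 (−1.80 ± 0.56) and the aldo-keto reductase gene Akr1c13 (−1.79 ± 0.57) also did not overlap between the groups. Akr1c13 was at 2.63 to 3.68 CPM in KO, at 3.99 and 4.11 CPM in het 2 and het 3 and at 15 and 21.2 CPM in het 1 and het 4. Without these 2 libraries the log2 fold changes were −0.65, −0.75 and −0.33. The adjusted p was 0.865 for all 16 genes named here by lowest p (edgeR).

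**Figure D4:**
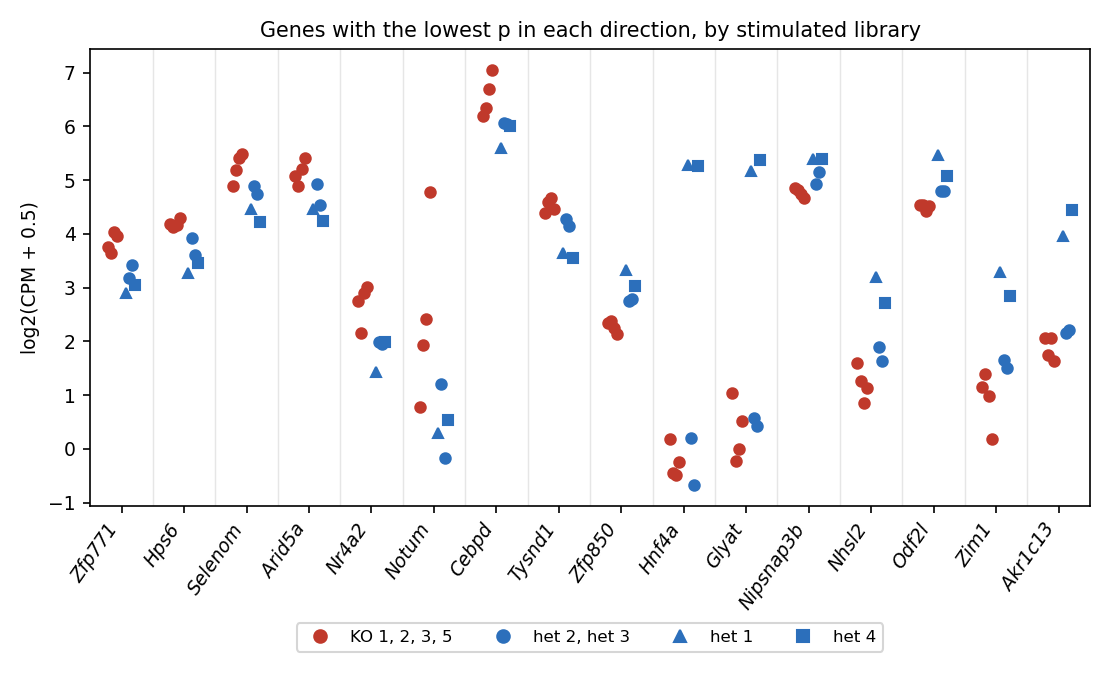
Levels of the 8 genes with the lowest p and a higher level in KO (left) and the 8 with a lower level (right), as log2(CPM + 0.5) on the y axis, each point 1 library with KO in red and het in blue. Zfp771, Hps6, Nr4a2, Cebpd, Tysnd1, Zfp850, Nipsnap3b, Nhsl2, Odf2l, Zim1 and Akr1c13 do not overlap between the groups, while Hnf4a and Glyat differ through het 1 (triangle) and het 4 (square).

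**Figure D5:**
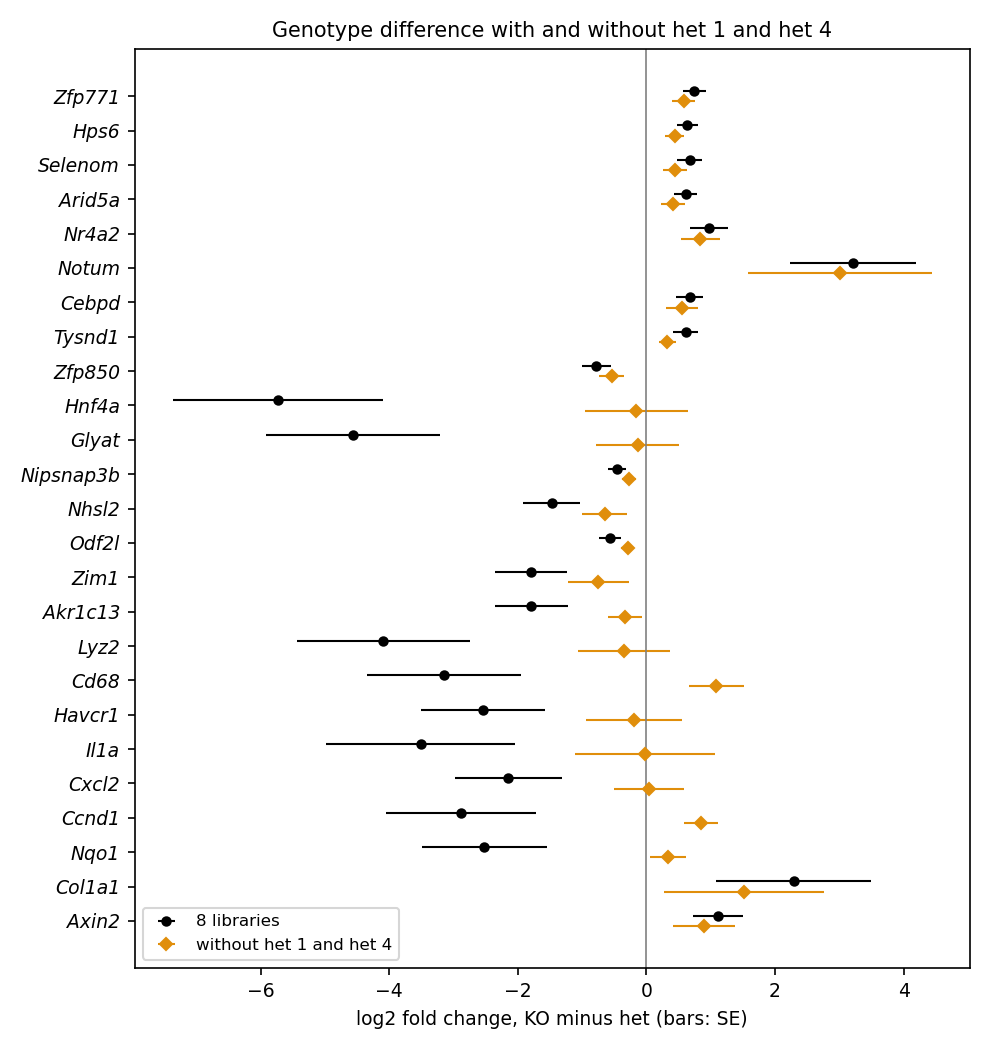
Log2 fold change, KO minus het, with its SE for 25 genes, from all 8 libraries (black circles) and without het 1 and het 4 (orange diamonds). Zfp771 moves from 0.75 to 0.58 and Zfp850 from −0.78 to −0.54, whereas Hnf4a moves from −5.73 to −0.16 and Ccnd1 from −2.88 to 0.85.

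The plot of estimates with and without het 1 and het 4 shows that all 16 genes with the lowest p kept their sign. They were chosen by p from these same libraries. Where the groups do not overlap, leaving out het libraries cannot change the order of the groups, so a kept sign is no support. Hnf4a at −0.16 ± 0.80 and Glyat at −0.14 ± 0.65 were within their SE of 0 without het 1 and het 4. All 16 moved toward 0, for example Tysnd1 from 0.61 to 0.32 and Akr1c13 from −1.79 to −0.33.

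Genes next to Ptprz1 on the chromosome were few in these cells. Of 21 listed neighbours 9 were tested, 6 higher and 3 lower in KO with a median of 0.03. Fam3c was at 100.3 to 130.5 CPM in KO and at 37.8, 137.1, 104.4 and 71.2 CPM in het 1 to 4, and Wasl at 75.6 to 83.5 CPM in KO and 79.9 to 126.4 CPM in het libraries. Both overlapped between the groups.

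Whether the genotype difference in the stimulated state differed from that without stimulation was tested in 16 libraries. These were the 8 above and the control libraries with the same genotype and number. The same animals gave both states, but libraries of the same number were not always from the same animal. The edgeR and DESeq2 fits had no animal term. The animals of het 3 and KO 3 enter under both genotypes, and no setting of this test left them out. Of 14630 genes 0 were called (0%), with 224 at an unadjusted p under 0.05 and a lowest adjusted p of 1 (edgeR). DESeq2 also called 0, with 314 at an unadjusted p under 0.05, and limma-voom with the animal as a correlated block called 0, with 706. The mitochondrial ribosome gene Mrps26 was among the 5 genes with the lowest p: it was at 22.1, 21.1, 20.2 and 19.9 CPM in stimulated KO 1, 2, 3 and 5 and at 16, 19.7, 18.6 and 15.5 CPM in stimulated het 1 to 4. In control libraries Mrps26 was at 18.9 to 22.4 CPM in KO and 22.5 to 26.7 CPM in het, so that KO was above het only after stimulation, and the difference of differences was 0.56 ± 0.15. The other 4 genes, Junos, Ccdc142, Tmem178b and Maats1, were at or below 1.85 CPM in all 16 libraries. For Hnf4a the control difference was −6.06, and the difference of differences was 0.35.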

How the data were processed

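RNA from primary mouse tubular epithelial cells was sequenced, and the authors deposited 1 table of estimated counts per gene with 20 library columns and 55891 Ensembl IDs. Per the submitters' processing notes the tools were Salmon 1.10.2, FastQC 0.11.9, DESeq2 1.45.3 and R 4.4.1 and the build was GRCm39, while the roles of the tools, the summing of transcripts to genes and the strand setting are not stated. Groups and replicate numbers came from the sample titles. Gene symbols, taken from an annotation of build GRCm38 by Ensembl ID and used for names only, were found for 92.0% of the IDs, which hold 98.8% of the counts.

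Counts were rounded and tested in R 4.3.3 with edgeR 4.0.16 (TMM, filterByExpr, robust quasi-likelihood F test, 2 group means, no block), two-sided, with a gene called when its adjusted p (Benjamini-Hochberg) was under 0.05. The SE given with edgeR is the absolute log2 fold change divided by the square root of the F statistic. CPM values use TMM factors over the 20 libraries, and plots of levels add 0.5. Principal components and correlations between libraries use edgeR's log2 CPM, with its default offset and TMM factors over the 8 libraries. Overlap was judged on log2(CPM + 0.5). Total counts set the precision, and intervals for counts cover counting error only. Alternatives were DESeq2 1.42.0, limma 3.58.1 (voom, quality weights, animal block), other scalings and filters, the replicate block, and leaving out libraries; sex as a covariate, and the 16 libraries without het 1 and het 4 of both states, were added after the data were seen.

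By the rule for named genes the text takes the 8 genes with the lowest p in each direction (mean log2 CPM of at least 1, no predicted names), up to 4 members of each of 26 lists by lowest p, Ptprz1, Il34, Csf1 and Csf1r, and the 5 lowest p of the difference between states. How many of the 4 are described was decided after their values were seen. Epcam, Cdh1, Pax8, Acta2, Ciita, Ptprc, Cd3e, Peg3 and Usp29 were chosen after their values were seen. The comparison, its libraries and the lists were chosen with earlier results of these data known. On simulated counts the test was checked for recovery of set fold changes.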

Additional observations from a re-analysis of the deposited data

Results flagged for a closer look

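In groups of 4 libraries a level was marked when its gap to the nearest library, divided by the group's range on the log2(CPM + 0.5) scale, exceeded Dixon's 95% critical value. Of 152 groups (76 genes in KO and het) 10 were marked, and chance alone marks about 1 in 20 groups.

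Among KO libraries KO 3 stood apart with 6162 CPM of Col1a1 against 449.7 to 624.5 CPM, with 5202 CPM of Col1a2 against 361.7 to 457.5 CPM, and with 62.8 CPM of the necroptosis gene Mlkl against 85.8 to 89.5 CPM. KO 2 had 4.15 CPM of Il1b against 1.1 to 1.32 CPM. KO 5 had 65.4 CPM of Ccnd1 against 42.2 to 43.6 CPM.

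Among het libraries het 4 stood apart in 3 genes, with 56.3 CPM of H2-Ab1 against 13.1 to 15.4 CPM, 59.9 CPM of H2-DMb1 against 20.3 to 23.4 CPM and 842.2 CPM of Csf1 against 512.4 to 533.6 CPM. Het 1 had 2.19 CPM of Nr4a2 against 3.39 to 3.49 CPM and 47.7 CPM of Cebpd against 63.7 to 66.7 CPM. Genes high in het 1 and het 4 together, such as Hnf4a, cannot be marked by a gap to a single library.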

How the results depend on the processing

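The count of called genes was 0 with all 8 libraries, 1 with DESeq2's Wald test, 639 without both het 2 and het 3, and 0 under every other setting, including each left-out library (range 0 to 0). The 848 genes at an absolute log2 fold change of at least 1 became 7052 with no filter on low counts, 301 with quality weights, 2820 without both het 2 and het 3 and 468 with the 10 stimulated libraries as labelled; leaving out 1 library gave 560 to 1468. The cause was not tested, except that lifting the filter adds low genes. The Ptprz1 difference, KO minus het, was −0.118 CPM; leaving out 1 library gave −0.162 to −0.0892, the first without het 3. The difference between states had 0 calls under each setting run.

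Of 107 named and tested genes 65 kept their direction in every setting, and 52 of the 76 taken up in the text or checked for libraries that stand apart. Without het 1 and het 4 the log2 fold change changed sign in Cdh16 (0.924), Krt19 (0.465), Cd68 (1.09), Podxl (0.363), Mx1 (0.366), Oasl1 (0.216), Rsad2 (0.866), Ctss (0.534), Cxcl2 (0.0401), Cxcl5 (1.07), Il34 (−0.0594), Spp1 (0.544), Birc3 (0.241), Mlkl (0.103), Nqo1 (0.333), Slc7a11 (0.539), Ccnd1 (0.853) and Fam3c (−0.0389). In the 16 libraries without het 1 and het 4 of both states the values were Cdh16 0.93, Krt19 0.47, Cd68 1.09, Podxl 0.369, Mx1 0.37, Oasl1 0.221, Rsad2 0.87, Ctss 0.539, Cxcl2 0.0454, Cxcl5 1.07, Il34 −0.0546, Spp1 0.549, Birc3 0.246, Mlkl 0.108, Nqo1 0.339, Slc7a11 0.544, Ccnd1 0.859 and Fam3c −0.0342. With quality weights, which gave het 1 a weight of 0.165 and het 4 of 0.335, they were Adgre1 0.241, Cd68 0.669, Podxl 0.0347, Rsad2 0.134, Ctss 0.287, Cxcl5 0.891, Il1b 0.163, Il1a 0.594, Spp1 0.197, Birc3 0.0788, Mlkl 0.0219, Nqo1 0.0304, Slc7a11 0.288 and Ccnd1 0.469.

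Cnn1 turned under several settings: 1.4 with limma-voom, 1.02 with 16 libraries and the animal block, 3.65 without het 2 and het 3, 0.655 without animals 5 and 7, 0.0142 in 10 and 0.0144 in 20 libraries as labelled; leaving out 1 library gave it −0.621 to 0.589. Leaving out 1 library gave Cxcl5 −2.37 to 0.209 and Cdt1 −1.56 to 0.0539. With sex as a covariate Krt18 was at 0.179.

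With the replicate number as a block 0 genes were called, with 257 at an unadjusted p under 0.05, 571 genes were at 1 or more, and Cxcl5 was at 0.583 and Cnn1 at 0.522. The same-numbered libraries come from different animals; their deviations correlated at 0.33, 0.555 and 0.093 for numbers 1, 2 and 3, and KO 1, 2 and 3 each correlated best with the het library of the same number, which is a hint from the data and not from the design. The numbers were not taken as pairs, since the third value is under 0.1.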

Other observations

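Peg3, Zim1 and Usp29, neighbours in an imprinted domain of the mouse genome, were all highest in het 1 and next highest in het 4. They were chosen after their values were seen. Peg3, a zinc finger gene, was at 234.8, 201.8, 157.7 and 110.5 CPM in KO 1, 2, 3 and 5 and at 635.9, 228.6, 240.5 and 547.4 CPM in het 1 to 4. Usp29 was at 4.83, 3.2, 2.36 and 1.58 CPM in the KO libraries and at 22, 4.09, 3.72 and 12.1 CPM in the het libraries. The groups overlapped in both genes through KO 1, whereas for Zim1 they did not. The log2 fold changes were −1.23 ± 0.40 for Peg3 and −1.81 ± 0.63 for Usp29, and −0.41 and −0.39 without het 1 and het 4.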
